A study of Mus musculus with 4 samples.

Results

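Brca1, Brca2, Mgmt and Atm, 4 genes of DNA repair, were examined on 4 MeDIP-chip arrays of mouse leukaemic cells, 1 array for each group. The genes were taken as the non-control probes that the array annotation names for them, among 17034 genes with at least 3 usable probes. They were chosen with the KO minus WT difference of Brca1 already in view, so every KO minus WT value of these genes is a description and carries no test. The groups were KO cells given 20 nM decitabine every 24 h for 3 days, KO cells left untreated, WT cells given the same decitabine schedule, and WT cells left untreated, all harvested at 72 h. All cells were cultured in serum with interleukin-6, interleukin-3 and stem cell factor. The source names give the KO as Mll5, a protein with SET and PHD domains, whereas the genotype field of the same samples names HOXA9, so the labels disagree on which gene the KO cells lack. No probe carried the name Mll5, so the arrays do not check that label. Of the 39 probes named Hoxa9, the input was well above background at 28 in KO decitabine, 32 in KO untreated, 35 in WT decitabine and 34 in WT untreated cells. Over all probes of the array the share was 68.8%, 74.0%, 79.8% and 83.3% in the same order, against which these counts are to be read. The leukaemic cell type cannot be checked against marker expression, since DNA and not RNA was measured. With 1 array in each group there is no replicate error: an error after ± is the SD over the probes of a gene, and it does not measure the spread between cultures. Since no slide held more than 1 of the arrays, an effect of the slide and an effect of the group cannot be told apart.

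Brca1 and Brca2 act in homologous recombination, which repairs DNA broken on both strands from an intact copy: Brca1 helps to process the broken ends and Brca2 acts after it in the exchange of strands. Atm is the kinase that signals such breaks, and Mgmt takes alkyl groups from guanine onto itself in a single step. CpG-rich promoters of this kind are usually unmethylated, and methylation of the BRCA1 and MGMT promoters with loss of expression is known from human tumours. MeDIP enriches methylated DNA with an antibody against methylcytosine, and decitabine is a nucleoside drug that, once built into DNA, holds and depletes the methyltransferases.

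The promoters are shown first because the probes sit in and around them. In the mm9 build, each window runs from 250 bases before to 50 bases from the annotated start of the gene and is written on the strand of the gene, with every CpG in capitals. The windows are chr11:101413220-101413519 (minus strand) for Brca1, chr5:151324955-151325254 (plus strand) for Brca2, chr7:144086044-144086343 (plus strand) for Mgmt and chr9:53344796-53345095 (minus strand) for Atm.
Brca1: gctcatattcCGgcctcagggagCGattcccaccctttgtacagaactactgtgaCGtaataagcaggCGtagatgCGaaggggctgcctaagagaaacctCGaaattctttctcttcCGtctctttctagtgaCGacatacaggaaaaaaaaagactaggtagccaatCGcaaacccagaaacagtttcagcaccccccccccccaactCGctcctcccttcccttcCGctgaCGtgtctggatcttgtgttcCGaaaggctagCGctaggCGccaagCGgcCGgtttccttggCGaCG
Brca2: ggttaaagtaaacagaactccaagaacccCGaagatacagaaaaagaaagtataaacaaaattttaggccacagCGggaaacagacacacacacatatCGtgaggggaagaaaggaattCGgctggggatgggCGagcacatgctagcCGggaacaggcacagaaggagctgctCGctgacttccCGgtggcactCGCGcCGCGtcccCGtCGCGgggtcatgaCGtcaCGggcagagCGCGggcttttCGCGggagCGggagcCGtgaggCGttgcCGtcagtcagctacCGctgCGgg
Mgmt: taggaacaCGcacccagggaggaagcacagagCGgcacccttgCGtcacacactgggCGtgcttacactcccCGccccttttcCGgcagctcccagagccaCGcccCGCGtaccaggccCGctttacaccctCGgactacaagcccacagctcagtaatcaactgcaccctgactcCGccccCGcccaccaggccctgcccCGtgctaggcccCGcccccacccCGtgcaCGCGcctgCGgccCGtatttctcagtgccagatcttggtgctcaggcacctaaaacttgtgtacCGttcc
Atm: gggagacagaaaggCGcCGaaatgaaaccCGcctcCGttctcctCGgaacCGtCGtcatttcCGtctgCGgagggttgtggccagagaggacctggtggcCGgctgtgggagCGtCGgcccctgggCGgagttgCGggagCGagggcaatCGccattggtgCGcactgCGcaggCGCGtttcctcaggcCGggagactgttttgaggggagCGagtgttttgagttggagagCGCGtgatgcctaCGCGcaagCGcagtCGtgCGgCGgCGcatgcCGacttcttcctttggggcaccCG

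All 4 windows were richer in CpG than the median promoter. The Brca1 window held 19 CpGs, against a median of 11 over 22084 promoter windows of protein-coding genes, and 65.3% of those windows held fewer. The Brca2 window held 27 CpGs, more than 81.6% of windows, the Mgmt window 21, more than 69.9%, and the Atm window 33, more than 90.0%. The observed over expected CpG ratio was 0.90 for Brca1, 1.08 for Brca2, 0.72 for Mgmt and 1.06 for Atm. Of 3 CpG-bearing motifs searched on both strands, NRF1 (GCGC, any 2 bases and GCGC again, in 8.07% of the windows) matched at 2 positions in Atm, CRE (TGACGTCA, in 2.32%) matched at 1 position in Brca2 and ETS (CCGGAAGT, in 4.74%) matched in none of the 4. No matches of different motifs overlapped here, and a match is a description of the sequence only.

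The probes that the results turn on are shown next, again with CpGs in capitals and on the plus strand of mm9. At Brca1 they are the 3 probes with the lowest KO minus WT differences in untreated cells, all in an intron, and the only kept probe whose MeDIP signal stood well above background on any array. At Brca2 and Mgmt they are the probes with such signal on at least 1 untreated array.
Brca1 chr11:101413023-101413068: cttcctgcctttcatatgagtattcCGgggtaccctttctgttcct
Brca1 chr11:101410446-101410505: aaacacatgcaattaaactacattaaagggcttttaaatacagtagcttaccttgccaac
Brca1 chr11:101410018-101410077: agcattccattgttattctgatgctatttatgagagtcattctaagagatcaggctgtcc
Brca1 chr11:101408513-101408572: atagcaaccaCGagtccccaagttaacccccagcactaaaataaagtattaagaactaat
Brca2 chr5:151325032-151325078: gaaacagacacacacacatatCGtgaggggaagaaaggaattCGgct
Brca2 chr5:151327553-151327599: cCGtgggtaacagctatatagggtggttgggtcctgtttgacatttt
Mgmt chr7:144086069-144086113: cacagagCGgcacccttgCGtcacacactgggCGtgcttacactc

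The 4 genes had 88 probes, whose sequences all matched mm9 at the annotated position. Of these, 58 were kept, which means that the input was well above background and no spot was flagged as uneven on any of the 4 arrays. Brca1 (chromosome 11, 101350078 to 101413269, minus strand) kept 10 of 14 probes, Brca2 (chromosome 5, 151325205 to 151372321, plus strand) 15 of 28, Mgmt (chromosome 7, 144086294 to 144319870, plus strand) 18 of 25 and Atm (chromosome 9, 53247254 to 53344845, minus strand) 15 of 21. Of all 14 Brca1 probes, 1 overlapped an exon, 10 lay in introns and 3 lay outside the gene; the counts were 6, 6 and 16 for Brca2, 1, 7 and 17 for Mgmt, and 4, 15 and 2 for Atm. The probes cover only the region around the start of each gene (101408513 to 101413639 for Brca1) and say nothing of the rest of the gene body.

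MeDIP signal at these genes was mostly at background. A probe counts as well above background by the scanner software's own test, and where a signal is too close to background the software writes a surrogate value in its place; a probe is counted as surrogate where at least 1 of its spots is. Of the 10 kept Brca1 probes, the number whose MeDIP signal was well above background came to 0 in KO decitabine, 0 in KO untreated, 1 in WT decitabine and 0 in WT untreated cells. Brca2 had 3, 2, 3 and 2 of 15 in that order of groups, Mgmt 0, 0, 1 and 1 of 18, and Atm 0 of 15 on every array. Surrogate MeDIP values stood at 4, 7, 3 and 6 of the Brca1 probes, 5, 9, 7 and 9 of the Brca2 probes, 10, 13, 11 and 11 of the Mgmt probes and 8, 10, 8 and 10 of the Atm probes. Over all 328399 kept probes of the array, the MeDIP channel was well above background at 16.5%, 4.21%, 14.5% and 4.21%, and surrogate at 37.6%, 58.9%, 38.7% and 60.8%. Of the 17034 genes, 1770 (10.4%) had no kept probe above background in this sense on any array, Atm among them, and 6738 (39.6%) had at least 1 on every array, Brca2 among them.

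Values are log2 ratios of MeDIP over input, set so that the median of all probes of an array is 0, and averaged over the kept probes of a gene. Brca1 averaged -0.55 ± 0.77 in KO decitabine, -1.15 ± 1.02 in KO untreated, -0.06 ± 1.02 in WT decitabine and -0.41 ± 1.36 in WT untreated cells (SD over 10 probes). From high to low the order was WT decitabine, WT untreated, KO decitabine and KO untreated, and each step was smaller than the SD over probes. In KO untreated cells 5.92% of all genes had a lower value than Brca1, against 75.4% in WT untreated cells; with decitabine the share was 37.9% in KO and 88.1% in WT cells.

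**Figure D1:**
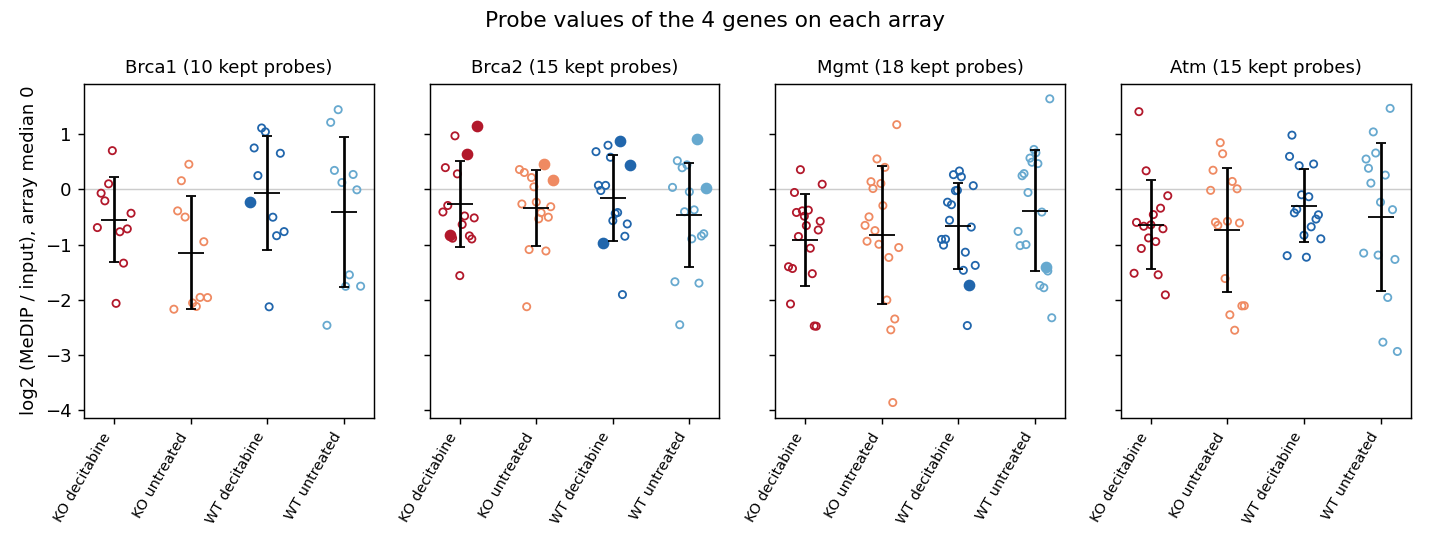
Log2 ratio of MeDIP over input (array median 0) of every kept probe of Brca1, Brca2, Mgmt and Atm on the 4 arrays; each circle is 1 probe, filled where its MeDIP signal was well above background, and the black bars are the mean and SD over probes. Filled circles are few: at Brca1 only 1 probe, in WT decitabine cells, is filled, and at Atm none.

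The other 3 genes lay closer together across the arrays. Brca2 averaged -0.26 ± 0.78 in KO decitabine, -0.34 ± 0.69 in KO untreated, -0.15 ± 0.78 in WT decitabine and -0.46 ± 0.94 in WT untreated cells (SD over 15 probes). Mgmt averaged -0.92 ± 0.83, -0.82 ± 1.25, -0.66 ± 0.78 and -0.38 ± 1.10 in the same order (SD over 18 probes), and was lowest in KO decitabine cells, where 5.40% of genes were lower. Atm averaged -0.64 ± 0.81, -0.74 ± 1.12, -0.29 ± 0.66 and -0.49 ± 1.34 (SD over 15 probes), with both KO arrays below both WT arrays. For each gene, the steps between neighbours in this order were smaller than the SD over probes. The median of all genes was -0.46, -0.63, -0.47 and -0.71.

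The question behind the KO to WT comparison is how the genotype bears on DNA methylation, and at Brca1 the log2 ratio was lower in KO cells with and without decitabine. In untreated cells the mean difference was -0.74 ± 0.91 (SD over 10 probes), 8 of 10 probes were lower in KO, and 76 of all genes (0.446%) had a lower difference. With decitabine it was -0.48 ± 0.50, again with 8 of 10 probes lower in KO, and 3.18% of genes had a lower difference. A difference of 1.5-fold or more in which 80% of probes or more lay on the lower side was reached by Brca1 in untreated cells only, as by 0.933% of all genes; in decitabine cells, where 0.963% of genes reached it, the size at Brca1 stayed under 1.5-fold. The mark is set on the mean log2 ratio, which at Brca1 comes from probes at background, so it is no fold of a measured level. Nothing is read from these shares, since this contrast chose the gene.

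The Brca1 probes did not move evenly along the gene. The probe 223 bp into the gene had log2 ratios of -1.33 in KO decitabine, -1.95 in KO untreated, -0.84 in WT decitabine and 0.27 in WT untreated cells, the lowest KO minus WT difference of the gene in untreated cells at -2.23. It has 2 spots, and both were MeDIP surrogates on every array except WT untreated, where 1 was. The probe at 2793 bp had 0.10, -0.50, 1.11 and 1.44, and the probe at 3221 bp -0.07, -0.39, 0.75 and 1.22; both KO arrays lay below both WT arrays at each. The probe over the exon, 59 bp into the gene and holding 4 CpGs, had -0.71, -0.95, 0.66 and -0.01, with both KO arrays again below both WT arrays. Of the 10 probes, 6 were lower in KO cells at both treatments and the other 4, at -71, 1202, 2423 and 4726 bp, differed in opposite directions without and with decitabine. Nothing is read from the order of KO and WT arrays at these probes. Brca1 was chosen for its lower KO values, and the share of all kept probes with that order is not given. Within 1000 bp of the start the mean untreated difference was -0.99 over 4 probes, and beyond it -0.57 over 6; with decitabine these were -0.45 and -0.51.

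**Figure D2:**
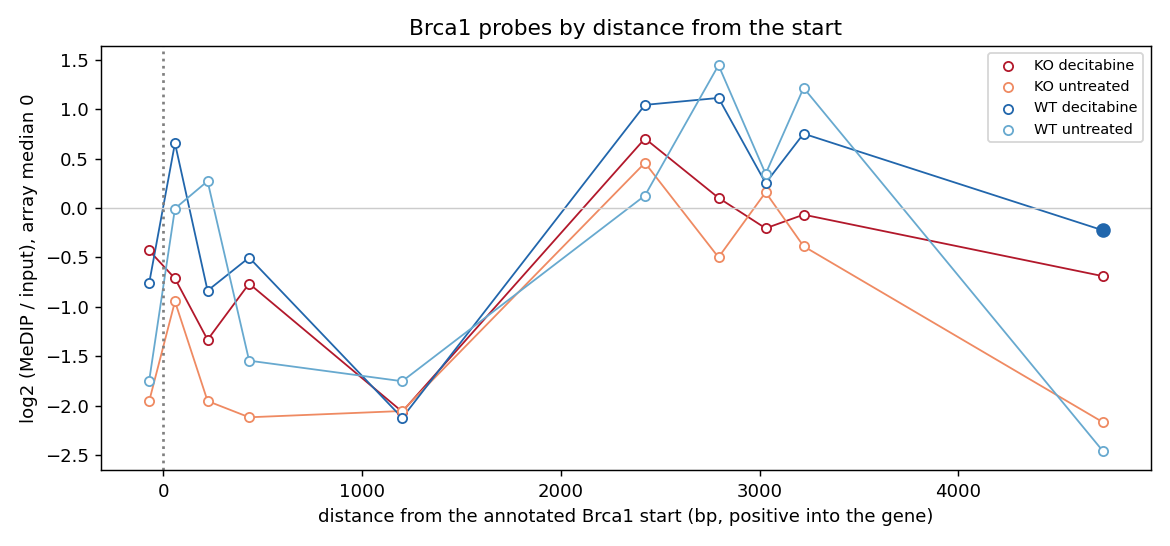
Log2 ratio of MeDIP over input (array median 0) of the 10 kept Brca1 probes against their distance in bp from the annotated start, 1 line for each array, with filled points where the MeDIP signal was well above background. Both KO arrays lie below both WT arrays at 59, 223, 2793, 3030 and 3221 bp, and all arrays meet near -2 at 1202 bp. Brca1 was chosen for its lower KO values, and the share of all kept probes with that order is not given. Nothing is read from it.

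The channels of the ratio were then read apart, each set to an array median of 0. In untreated cells the mean MeDIP signal of the Brca1 probes was 0.15 in KO and 0.41 in WT cells on the log2 scale, a difference of -0.26 ± 0.75. The mean input signal was 1.06 in KO and 0.55 in WT cells, a difference of 0.51 ± 0.45, and input was brighter in KO at 9 of 10 probes. The input channel thus moved further than the MeDIP channel; its part in the lower ratio was not tested. With decitabine the MeDIP difference was -0.19 ± 0.54 and the input difference 0.22 ± 0.42, with input brighter in KO at 8 of 10 probes.

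Surrogate values entered the same comparison. In untreated cells 4 of the 10 Brca1 probes had a surrogate MeDIP value on both the KO and the WT array, and their mean difference was -0.82. Without the probe at 223 bp, which has 1 measured spot in WT cells, the other 3 averaged -0.35. The single probe with a measured MeDIP value on both untreated arrays, at 4726 bp, had a difference of 0.29, higher in KO. With decitabine 6 probes had a measured value on both arrays, with a mean difference of -0.52, and 3 had a surrogate on both, with -0.30. No fold is given for Brca1 in untreated cells, since no probe was well above background in either group. With decitabine the probe at 4726 bp was well above background only in WT cells. By its own signals it was 1.38-fold lower in KO cells, where its signal lay above the detection floor, and this is no minimum. It was picked for being bright in WT cells alone, so a lower KO value is built in.

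**Figure D3:**
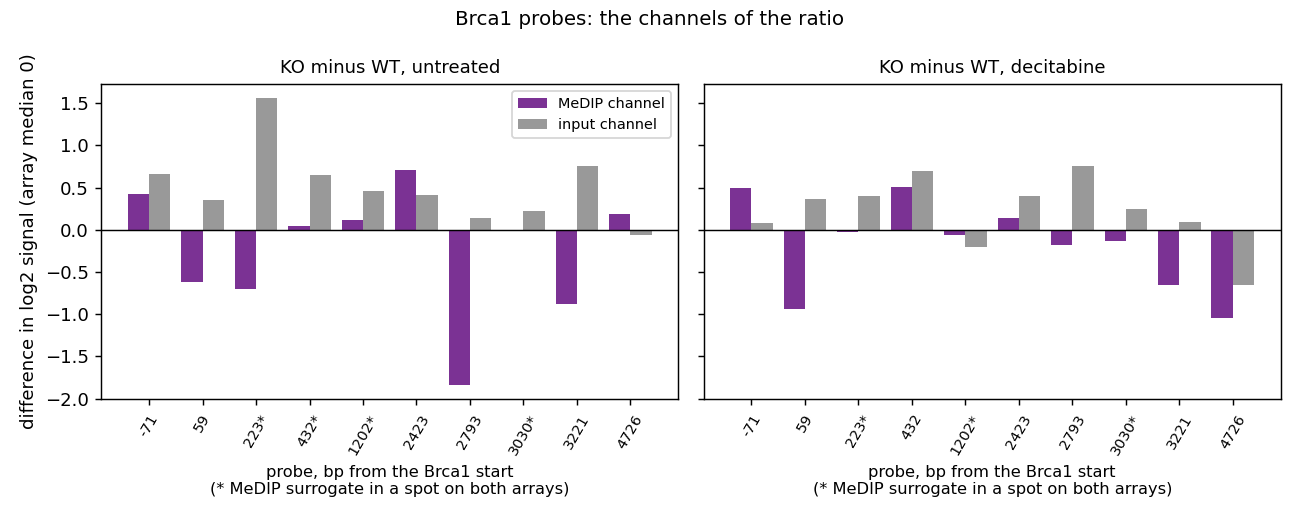
KO minus WT difference in log2 signal of the MeDIP channel and the input channel (each with array median 0) at the 10 kept Brca1 probes, named by their distance in bp from the start, in untreated cells (left) and with decitabine (right). In untreated cells input is higher in KO at 9 of 10 probes, and the starred probes have a surrogate MeDIP value in at least 1 spot on both arrays.

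Brca2 had MeDIP signal well above background at more probes than the other 3 genes. The probe at -150 bp from the start, inside the promoter window printed above and holding 2 CpGs, had MeDIP signals of 7972 in KO decitabine, 7676 in KO untreated, 9855 in WT decitabine and 10219 in WT untreated cells, in scanner intensity units. Its log2 ratios were 0.63, 0.46, 0.88 and 0.92, so both KO arrays lay below both WT arrays. The intron probe at 2371 bp had MeDIP signals of 10823, 4336, 5887 and 2817 and log2 ratios of 1.15, 0.16, 0.44 and 0.02. It was higher in KO than in WT cells at each treatment and higher with decitabine than without in each genotype. The exon probes at 130 and 228 bp, with 4 and 6 CpGs, had surrogate MeDIP values on all 4 arrays. A probe at -4905 bp, which lies in the neighbouring gene Zar1l, was well above background on both decitabine arrays and on neither untreated array.

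Averaged over the probes of Brca2, KO minus WT was 0.12 ± 0.65 in untreated cells, with 9 of 15 probes higher in KO, and -0.11 ± 0.60 with decitabine, with 6 of 15 higher. The medians of all genes were 0.08 and 0.03. Atm, the damage kinase, was lower in KO cells by mean values of -0.25 ± 0.68 in untreated cells and -0.35 ± 0.68 with decitabine, at 12 and 11 of 15 probes, 10 of them at both treatments; none of these probes was well above background on any array, so no fold is given.

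The log2 ratio of Mgmt was lower in KO cells as well, by mean values of -0.44 ± 0.84 in untreated cells (14 of 18 probes lower) and -0.26 ± 0.59 with decitabine (13 of 18 lower), and 11 probes were lower at both treatments. Read apart, KO minus WT was -0.28 for MeDIP and 0.19 for input in untreated cells. With decitabine it was 0.04 for MeDIP, not lower in KO, and 0.22 for input. In untreated cells 10 probes with surrogate MeDIP values on both arrays averaged -0.30 in log2 ratio, and the 4 measured on both -0.60. With decitabine 9 surrogate probes averaged -0.46 and the 6 measured ones -0.05. The Mgmt probe at -203 bp from the start, also inside its promoter window and with 3 CpGs, was the only one whose MeDIP signal stood well above background, and only in WT cells. The MeDIP signals there were 809 in KO decitabine, 489 in KO untreated, 1589 in WT decitabine and 1887 in WT untreated cells, and the input signals 4902, 5454, 4802 and 4483. The probe is named because it was bright, which it was on the WT arrays alone, so lower KO signals are built in. Its log2 ratios were -2.48, -3.86, -1.73 and -1.41. Counted from the detection floor, it was 3.93-fold lower in KO than in WT cells untreated. With decitabine it was 1.68-fold lower by its own signals. Neither fold is a minimum: in KO untreated cells the Brca2 probe at -5341 bp read 842 without being well above background. These folds describe this probe and test nothing.

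**Figure D4:**
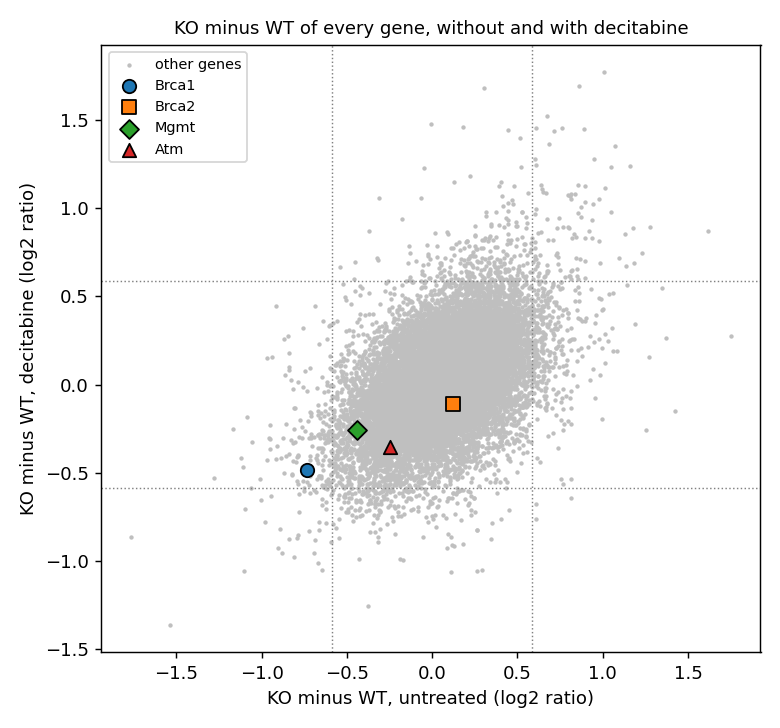
KO minus WT difference in log2 ratio of each of 17034 genes (grey points) in untreated cells (horizontal axis) and with decitabine (vertical axis), with Brca1, Brca2, Mgmt and Atm marked and dotted lines at 1.5-fold. Brca1 lies left of the dotted line at -0.74 and above the lower one at -0.48, Mgmt and Atm lie inside the lines in the same quadrant, and Brca2 is near 0.

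Brca1 and Atm each start next to another gene on the opposite strand. Nbr1, an autophagy receptor gene, starts 194 bp from Brca1 and kept 31 of 48 probes. It averaged -0.18 in KO decitabine, -0.32 in KO untreated, 0.26 in WT decitabine and 0.05 in WT untreated cells, so KO minus WT was -0.38 in untreated cells and -0.43 with decitabine. As at Brca1, the input channel moved further than the MeDIP channel: KO minus WT was 0.32 for input and -0.09 for MeDIP in untreated cells, and 0.33 and -0.03 with decitabine. MeDIP signal was well above background at 7, 1, 6 and 1 of its probes in the order of groups above. Npat, which controls histone gene transcription, starts 307 bp from Atm and kept 6 of 15 probes. It averaged 0.04, -0.64, -0.02 and -0.26, with KO minus WT at -0.38 in untreated cells and 0.07 with decitabine.

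The genes whose pattern over the 4 arrays was most like that of Brca1 were found by the distance between values after the mean of each gene was removed. Among 13327 genes with at least 10 kept probes, the nearest were Zfp438 at a distance of 0.16 log2 units, Xpo5 at 0.18, Atp6v1b2 at 0.18, Rpl41 at 0.20 and Zpbp2 at 0.21, against a median distance of 0.79. Atm lay at 0.48, Mgmt at 0.71 and Brca2 at 0.72. These distances rest on 4 arrays that all genes share.

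The choice of genes did not use the decitabine contrast, but the KO untreated array on which Brca1 was low enters both, so the test is not fully apart from that choice. It was made with limma, in a model of genotype and treatment over the 4 arrays whose only residual degree of freedom is their interaction. Brca1 rose by 0.47 (SE 0.13, limma adjusted p = 0.0136), a direction that turned with loess and with centring on bright probes, with a mean of -0.31 on the decitabine arrays and -0.78 on the untreated arrays. In this test 34.8% of all 17034 genes passed at an adjusted p of 0.05, with 5577 (32.7%) higher and 358 (2.1%) lower with decitabine, and the median change of all genes was 0.23. Brca1 was 1 of 4 members to pass, a share near that background. Within KO cells it was 0.60 ± 0.65 higher with decitabine, at 8 of 10 probes, past the mark of 1.5-fold on the mean log2 ratio that 9.63% of all genes passed, although no Brca1 probe was well above background on either KO array. Within WT cells it was 0.35 ± 0.99 higher, at 5 of 10 probes, under the mark that 12.8% of genes passed; the difference between the genotypes, 0.25, is the residual of the model and was not tested. The probe at 4726 bp was well above background only in WT decitabine cells. Its MeDIP signals were 948 in KO decitabine, 452 in KO untreated, 1982 in WT decitabine and 419 in WT untreated cells. Counted from the detection floor, it was 2.83-fold higher with decitabine in WT cells. That fold is no minimum, since the probe at 2793 bp read 1134 in WT untreated cells without being well above background. The probe at 4726 bp was picked for being bright on the WT decitabine array alone, so a higher value there is built in.

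Decitabine minus untreated was 0.19 for Brca2 (SE 0.13, limma adjusted p = 0.241), -0.19 for Mgmt (SE 0.12, limma adjusted p = 0.242) and 0.15 for Atm (SE 0.12, limma adjusted p = 0.348), and none passed. The log2 ratio of Mgmt was lower with decitabine in both genotypes, by mean values of -0.10 ± 0.91 in KO and -0.28 ± 0.63 in WT cells. By limma 6.82% of genes had a lower change. In KO cells the 8 Mgmt probes with surrogate MeDIP values on both arrays averaged -0.47, and the 3 measured on both 0.78. In WT cells 8 such surrogate probes averaged -0.31, and the 4 measured on both 0.23. The mean MeDIP channel of Mgmt was not lower, with changes of 0.34 in KO and 0.02 in WT cells. Of the neighbouring genes, Npat rose by 0.46 (SE 0.14, limma adjusted p = 0.0212) and Nbr1 stood at 0.17 (SE 0.12, limma adjusted p = 0.271). MeDIP signal was well above background at 1 of the 6 kept Npat probes in KO decitabine cells and at 0 on every other array. The Npat change was 0.68 in KO and 0.24 in WT cells.

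The direction of these decitabine changes rests on how the arrays are set to a common level. The share of kept probes whose MeDIP signal was well above background stood at 16.5% and 14.5% on the decitabine arrays of KO and WT cells, against 4.21% on each untreated array; its part in the changes was not tested. With the arrays centred on probes bright in both channels, the median change of all genes was -0.53 in place of 0.23, the calls were 37 higher and 10453 lower, and Brca1 stood at -0.29 (limma adjusted p = 0.208). With loess within each array the median was -0.14, the calls were 57 higher and 797 lower, and Brca1 stood at -0.02 (limma adjusted p = 0.954). Relative to the median of all genes Brca1 was 0.24 higher with decitabine as reported and 0.12 higher with loess. Taken as the median of its probes, the change of Brca1 was 0.42 (limma adjusted p = 0.267), and over 10 alternatives its adjusted p ran from 1.73e-05 to 0.954.

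Further DNA repair genes were read from 8 lists that hold 113 genes besides the 4, drawn up by pathway but with earlier results of these data known. Of these genes, 103 were measured. With decitabine 41 of the 103 rose and 1 fell by limma, 39.8% higher against 32.7% of all genes, and the median change was 0.29 against 0.23. None of the 103 was at least 1.5-fold lower or higher in KO than in WT cells at either treatment, where 1.24% of all genes were that much lower and 2.63% higher in untreated cells, and 1.45% lower and 2.15% higher with decitabine. The KO minus WT median of the 103 was -0.01 in untreated cells, with 52 below 0, and -0.06 with decitabine, with 59 below 0. MeDIP signal well above background on all 4 arrays was seen at 44 of the 103, and on none at 9. With centring on bright probes or loess the median of all genes falls below 0, and the directions below hold only as the arrays were set here.

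Each list's count is to be read against the 32.7% of all genes that rose, the 2.1% that fell and their median of 0.23. Among partners in homologous recombination 8 of 18 (44.4%) rose and none fell, with a median of 0.31. Eme1, which forms a junction-cutting nuclease with Mus81, rose by 0.67 (SE 0.13, limma adjusted p = 0.00339), and Rad51c, which also acts in strand exchange, by 0.52 (SE 0.13, limma adjusted p = 0.0101). Of the 9 kept Rad51c probes, 1 was well above background in KO decitabine cells and 0 on every other array. Bard1, the binding partner of Brca1, was at -0.08 and Palb2, which links Brca1 to Brca2, at -0.13; neither passed, and both were chosen after their values were seen. In damage signalling around Atm 6 of 19 (31.6%) rose and 1 fell, close to the share of all genes, with a median of 0.24. Uimc1, which brings Brca1 to ubiquitin at breaks, rose by 0.65 (SE 0.12, limma adjusted p = 0.00267) and the tumour suppressor Trp53 by 0.63 (SE 0.12, limma adjusted p = 0.003). The gene that fell was Brcc3, a deubiquitinase of the same Brca1 complex, at -0.39 (SE 0.13, limma adjusted p = 0.0361); it had no probe well above background on any array and was chosen after its value was seen.

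In nucleotide excision repair 12 of 17 (70.6%) rose, against 32.7% of all genes, with a median of 0.41 against 0.23; Gtf2h4, a subunit of the repair and transcription factor TFIIH, rose by 0.66 and Ercc8, which acts at stalled transcription, by 0.64. In base excision repair 6 of 19 (31.6%) rose, near the share of all genes, with a median of 0.20. Ogg1, the glycosylase of oxidised guanine, rose by 0.87 (SE 0.16, limma adjusted p = 0.00278), the largest change named here, and Ung, which removes uracil from DNA, by 0.51. In mismatch repair 4 of 7 (57.1%) rose, with a median of 0.38, among them Msh6, which helps to recognise mismatches, by 0.63 and Mlh3, which acts after recognition, by 0.47. In direct reversal, the pathway of Mgmt, 1 of 3 (33.3%) rose, near the share of all genes. It was Alkbh3, an oxidative demethylase of alkylated bases, by 0.38 (SE 0.12, limma adjusted p = 0.0299), and it had no probe well above background on any array. In end joining 2 of 10 rose, a lower share than over all genes, the ligase Lig4 by 0.61 and the kinase Prkdc by 0.47, and in the Fanconi anaemia list 2 of 10 likewise, the core complex member Fanca by 0.55 and the translocase Fancm by 0.53. Whether the lists differ from each other was not tested.

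**Figure D5:**
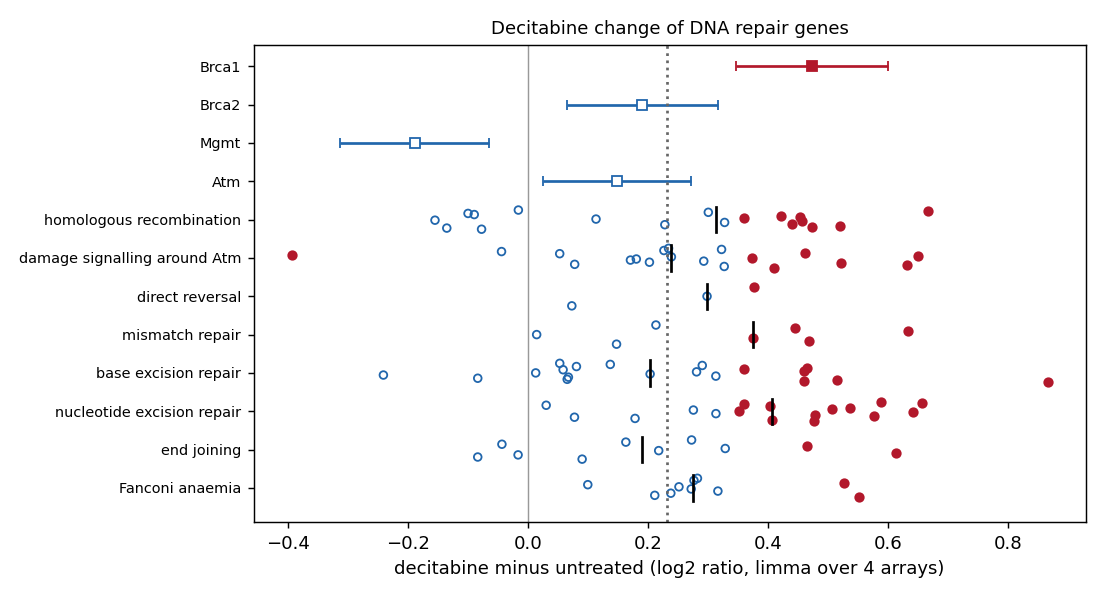
Decitabine minus untreated change in log2 ratio (limma over 4 arrays) of Brca1, Brca2, Mgmt and Atm (squares, bars are SE) and of the measured genes of 8 DNA repair lists (circles; filled where the adjusted p was under 0.05, black lines at the list medians). The dotted line is the median of all genes at 0.23; as the arrays were centred here, Brca1 at 0.47 and 12 of 17 genes of nucleotide excision repair passed above 0, while loess and bright-probe centring move the median of all genes below 0.

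The log2 ratio of the members' probes went down with their CpG content, as it did over the whole array. Members' probes with no CpG had a median ratio over the 4 arrays of -0.38 (27 probes), those with 1 of -0.55 (20), those with 2 or 3 of -0.57 (6) and those with 4 to 11 of -0.77 (5). The medians of all kept probes were -0.46, -0.51, -0.90 and -1.17 in the same classes. Across the 58 probes Pearson's r between CpG count and ratio was -0.22, against -0.20 over 327812 probes of the array; probes share arrays and neighbouring sequence, so this is a description.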

How the data were processed

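Genomic DNA was enriched for methylated DNA with a commercial MeDIP kit, a fraction set aside before enrichment served as input, and both went through whole-genome amplification before labelling, per the labels' protocols. MeDIP DNA carried Cy3 and input Cy5 on all 4 arrays, so no dyes were swapped. The authors deposited the scanner output of Agilent Feature Extraction (version 10.5 per the submitters' processing notes, 10.5.1.1 per the file headers): intensities on a linear scale, background-subtracted, dye-normalized and with surrogate values for signals near background, and a log ratio on the log10 scale, both per the file headers. The build is mm9, per the file headers. A deposited value table with 4 columns of per-sample values was not used here.

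From the intensities a log2 ratio, MeDIP over input, was computed for each spot, averaged over the spots of a probe and centred on the median of the array. Kept probes had input well above background and no uneven spot on all 4 arrays: 328399 of 520554. Genes are means over at least 3 kept probes. Duplicate spots of a probe on an array had a median SD between 0.18 and 0.23 log2 units. Decitabine was tested with limma 3.58.1 in R 4.3.3 (lmFit and eBayes, genotype and treatment, 1 residual degree of freedom) with Benjamini-Hochberg adjustment over 17034 genes, after the steps had been tested on simulated data. A fold of a probe sets the bright group against whichever is higher, the detection floor of the dim array (its weakest signal that counts as well above background) or the dim probe's own signal. Where the own signal is the higher, the fold is that of the observed log2 ratios and no minimum. Where the floor is the higher, the fold is no minimum either, since some probes that read above the floor did not count as well above background. The number of arrays limits the precision.

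The members and lists were chosen with earlier results of these data known. Named genes were the 4 members, the 2 genes of each repair list with the largest decitabine change among those with an adjusted p under 0.05, the 5 genes most like Brca1 and neighbours starting within 2000 bp. Alternatives were normexp background correction with an offset of 50, loess, quantile normalization, centring on bright or on kept probes, the deposited log ratio, no filter, bright probes only, the median over probes, a 1000 bp window and the MeDIP channel alone.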

Additional observations from a re-analysis of the deposited data

Results flagged for a closer look

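The KO minus WT difference of Brca2 was 0.12 in untreated cells and -0.11 with decitabine, opposite directions under the same contrast. The difference was not tested, there being 1 array in each group, and both values were smaller than the SD over its 15 probes.

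A Brca2 intron probe that was left out because its input was not well above background on every array, starting at 151327668 on chromosome 5 (mm9), had a MeDIP signal of 1035 in WT decitabine cells, where it was well above background. Its MeDIP signals in the other groups, 759 in KO decitabine, 309 in KO untreated and 822 in WT untreated cells, were not.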

How the results depend on the processing

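No paired analysis was possible because the arrays carry no replicate numbers; the limma fit has genotype as a term and so sets decitabine against untreated within each genotype. The KO minus WT value of Brca1 was below 0 under all 10 alternatives that gave one. It ran from -1.51 to -0.26 in untreated cells and from -0.79 to -0.19 with decitabine. The values nearest 0, -0.26 and -0.19, came from the MeDIP channel alone. Atm at both treatments and Mgmt in untreated cells were also below 0 under all 10. Brca1 was chosen for its lower KO values, and every alternative processes the same arrays again. Nothing is read from these shared signs. Over the alternatives, 48 of 205 values of the members took the opposite sign, and the cause was not tested for these or for any change given here. Bright probes alone left 3 probes of Brca2 and none of the other members with enough for a value. Centring on kept probes was chosen after seeing the data.

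The decitabine change of Brca1 by limma lost its call with kept-probe centring (0.34, adjusted p = 0.0837), the deposited log ratio (0.32, 0.677), the median over probes (0.42, 0.267), no filter (0.28, 0.0596) and quantile normalization (0.34, 0.12). It turned below 0 with loess (-0.018) and bright-probe centring (-0.29), where the KO change was -0.30. Brca2 turned to -0.57 with bright-probe centring, -0.10 with no filter, -0.13 within 1000 bp and -0.15 with loess, and passed at 0.48 in the MeDIP channel. Over bright probes it stood at 0.72, which is no support for a rise: probes enter there through any array on which they are bright, mostly the decitabine arrays, the median of all genes was 1.18, and Brca2 lay below it. Its KO change was -0.82 with bright-probe centring and 0.82 over bright probes. Mgmt was 0.18 in the MeDIP channel and passed at -0.95 with bright-probe centring. Atm was -0.61 with bright-probe centring, -0.13 by the median over probes and -0.21 with loess, and passed at 0.33 in the MeDIP channel. In that channel the median of all genes was 0.50 and 14184 of 17034 genes passed higher, and Brca2 and Atm lay below the median. With bright-probe centring the median was -0.53 and 10453 genes passed lower. The calls of the members are to be read against these shares.

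Genes higher and lower with decitabine by limma, 5577 and 358 as reported, numbered 14184 and 9 in the MeDIP channel, 37 and 10453 with bright-probe centring, 2132 and 761 with kept-probe centring, 135 and 8 by the deposited log ratio, 803 and 45 by the median over probes, 2789 and 1000 with no filter, 9281 and 2 over bright probes (a rise built in by that choice of probes), and 57 and 797 with loess. Quantile normalization gave 1179 higher, and normexp gave 42 and the 1000 bp window 177 lower. Genes at least 1.5-fold lower in KO than WT, 212 untreated and 247 with decitabine, numbered 35 and 69 in the MeDIP channel, 49 and 492 by the deposited log ratio, 546 and 642 by the median over probes, 24 and 13 with normexp, 572 and 515 within 1000 bp, and 673 and 465 with loess. Kept-probe centring gave 401 untreated. With decitabine, bright-probe centring gave 2122, bright probes alone 152 and quantile normalization 537. Genes at least 1.5-fold higher with decitabine, 1641 in KO and 2180 in WT cells, numbered 6265 and 6278 in the MeDIP channel, 15 and 88 with bright-probe centring, 818 and 965 with kept-probe centring, 486 and 577 with no filter, 9075 and 8559 over bright probes (built in likewise), 1078 and 496 with quantile normalization, and 58 and 146 with loess. In KO cells the deposited log ratio gave 232, normexp 417 and the 1000 bp window 3506.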
